A study of Mus musculus with 18 samples.

Results

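The transcriptional output left by A-241 (250 nM) and by A-485 (1000 nM) in IFNγ-stimulated AT3 cells was compared library against library, using 6 of the 18 libraries of the series. These were the 3 libraries of A-241+IFNγ and the 3 libraries of A-485+IFNγ, chosen by condition and not by any measured value. AT3 is a mouse mammary carcinoma cell line, used here as a model of triple-negative breast cancer. Every condition was in this 1 cell line, grown in culture. In both groups cells were given inhibitor for 1 h and then IFNγ at 1 ng/mL for the next 2 h, so that RNA was taken 3 h after the inhibitor. The other 12 libraries were DMSO, A-241, A-485 and IFNγ with DMSO, 3 of each and on the same schedule, and served to set the spread between libraries, the IFNγ-induced genes and the difference between the inhibitors without IFNγ. A-241 and A-485 are chemically distinct inhibitors of the lysine acetyltransferases P300 and CBP. They were used at different doses, and the compound and its dose cannot be told apart in any value below. Replicates are described as biological in the sample labels and as technical in the methods of the study, so the p values measure the spread between libraries and may not measure that between cultures.

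IFNγ binds a cell surface receptor that signals through JAK kinases to gamma-activated sites (GAS) in the genome, where a first group of genes that includes the transcription factor Irf1 is induced. Irf1 and its relatives bind the interferon-stimulated response element (ISRE) of further genes, among them chemokines, GTPases of cell-autonomous immunity and components of antigen presentation. P300 and CBP are coactivators that are recruited by many transcription factors and acetylate histones and other proteins at enhancers and promoters.

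The libraries were 3′ mRNA (QuantSeq) libraries, and the values are deposited counts of reads per gene. The 6 libraries held between 4489805 and 5526465 counts, a depth at which 3 counts correspond to between 0.543 and 0.668 CPM, the count scaled to library size. Within each of the 2 conditions every pair of libraries differed beyond counting noise (chi-square divided by its degrees of freedom, 4.36 to 9.69 over 6 pairs), and all 6 libraries were kept as separate. The 13 epithelial markers summed to between 1216 and 1361 CPM in the 6 libraries, although Krt19 and Cldn4 had 0 counts in all of them. Esr1 had at most 1 count and Pgr at most 14. The 7 mesenchymal markers summed to between 133 and 174 CPM, with Vim at 384 to 631 counts. The 7 fibroblast and endothelial markers summed to between 6.68 and 10.9 CPM. The 13 immune markers summed to at most 9.23 CPM, with Cd4, Adgre1 and Itgax at 0. The transcript Gm42418 took between 9.76% and 12.1% of the counts with A-241+IFNγ and between 7.38% and 9.45% with A-485+IFNγ, so that the groups did not overlap. Its part in the differences below was not tested. In IFNγ replicate 2 and DMSO replicate 3, which enter the spread and the choice of IFNγ-induced genes, it took 20.1% or more.

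Of 11964 genes tested (edgeR, quasi-likelihood F-test over all 18 libraries, adjusted p under 0.01), 61 (0.51%) had lower expression in A-241+IFNγ than in A-485+IFNγ libraries and 1 (0.00836%) had higher expression. The lower genes included chemokines that attract T cells, interferon-inducible GTPases and antiviral genes. Others did not meet the definition of IFNγ-induced genes given below, such as the hyaluronan synthase Has2 and the fatty acid binding protein Fabp5. Fabp5 was named after its values were seen. The gene that was higher was Hexim1, an inhibitor of the elongation factor P-TEFb. In the 61 lower genes every A-241+IFNγ library was below every A-485+IFNγ library, an order that 11.8% of all genes showed. The opposite order was shown by 7.96% of all genes. In a culture measured as a whole, fewer cells of a kind and less RNA per cell cannot be told apart. The median log2 fold change over all genes was 0.0019, with 49.6% of them negative. At an unadjusted p under 0.05, the level at which uncalled members of a list are counted below, 4.48% of all genes were negative and 2.02% positive. Just inside the threshold lay Tmem173 (adjusted p = 0.00997, edgeR) and just outside it Egr1 (adjusted p = 0.0106, edgeR).

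**Figure D1:**
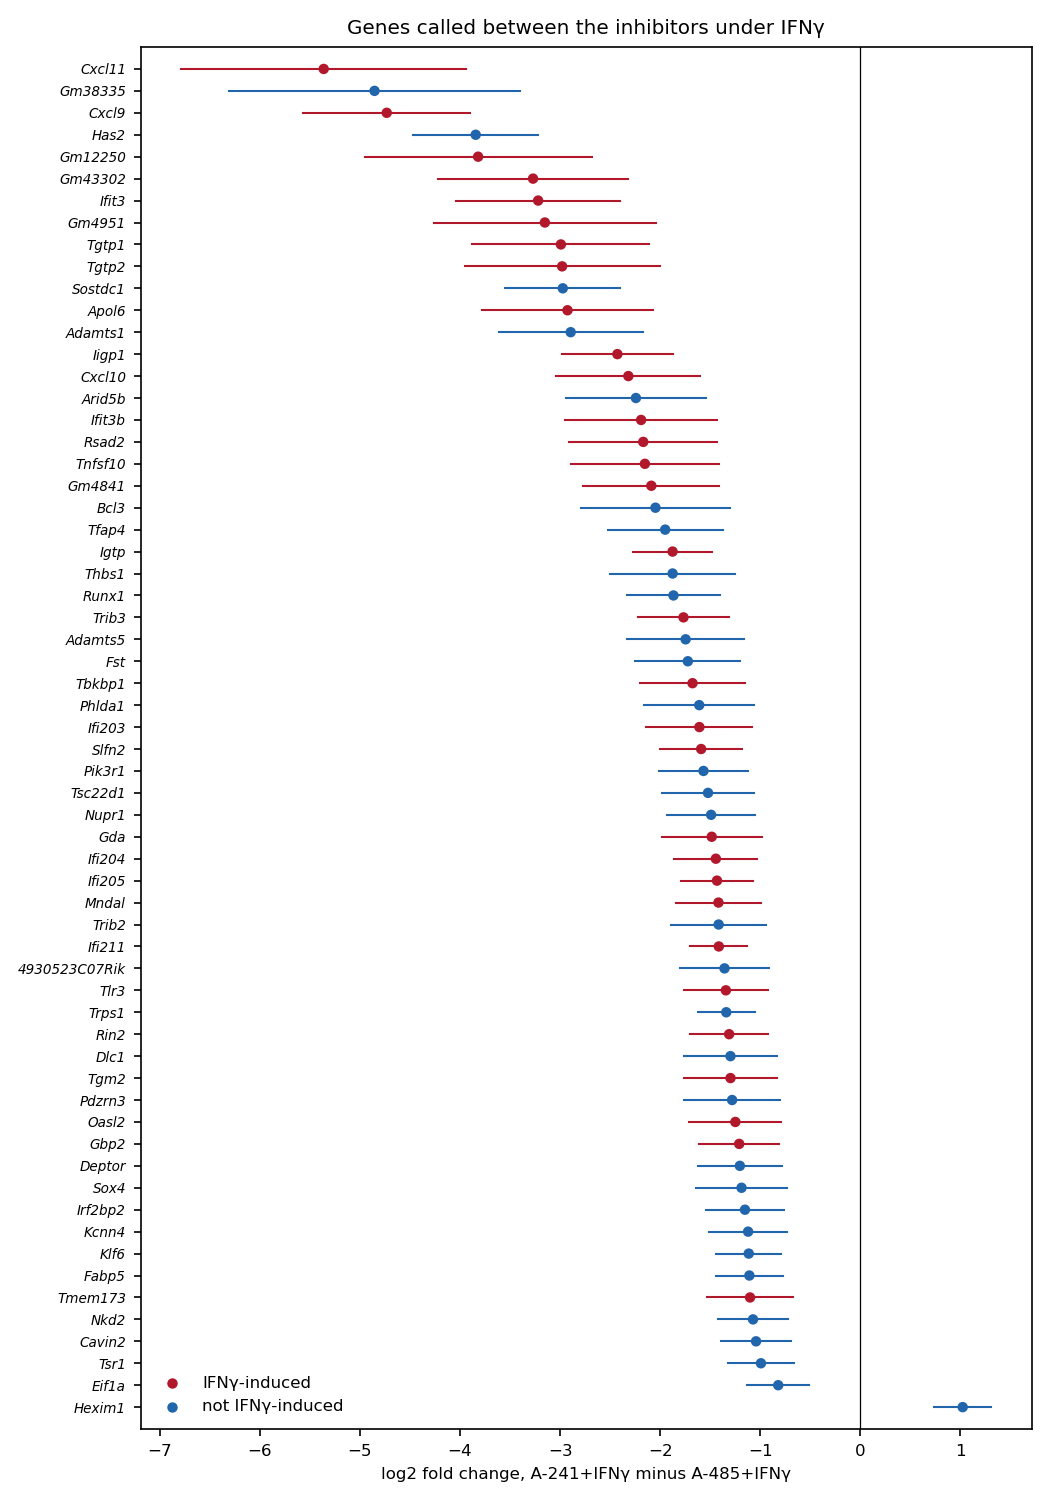
Log2 fold change of A-241+IFNγ minus A-485+IFNγ for each of the 62 genes called (points) with its 95% interval (lines), in red for IFNγ-induced genes and in blue for the others. Of the 62 genes, 61 lie left of 0, from Eif1a at -0.82 to Cxcl11 at -5.36, and Hexim1 alone lies to the right at 1.02.

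Chemokines that bind CXCR3, the receptor by which activated T cells and natural killer cells follow interferon, included the most negative fitted fold change. All 3 were lower with A-241+IFNγ, and all 3 are neighbours within 44139 bases of chromosome 5 of GRCm38 that hold no other tested gene. With A-241+IFNγ 9, 12 and 12 counts of Cxcl9 were obtained, and with A-485+IFNγ 295, 274 and 310. The 2 groups were far apart, and Cxcl9 was 26.6-fold lower with A-241 (log2 fold change -4.73, SE 0.39, adjusted p = 1.23e-05, edgeR). Counts of Cxcl10 were 108, 181 and 157 with A-241+IFNγ and 817, 719 and 650 with A-485+IFNγ. Cxcl10 was thus 4.99-fold lower (log2 fold change -2.32, SE 0.34, adjusted p = 0.00157, edgeR), a smaller difference in a gene whose exons overlap those of Art3. Cxcl11 is annotated as a polymorphic pseudogene and shares exon bases with Gm2673. Cxcl11 had 0, 0 and 2 counts with A-241+IFNγ and 30, 30 and 37 with A-485+IFNγ. From these sums, 2 against 97 counts, the ratio of A-485 to A-241 was 47.6 with a 95% counting interval of 12.8 to 399 (Cxcl11, adjusted p = 0.0025, edgeR). Without IFNγ all 3 were close to 0 with either inhibitor, at 8 counts or fewer in each library. Of the 12 other chemokines and cytokines tested, 1 was lower, Tnfsf10, which encodes the death ligand TRAIL. With A-241+IFNγ 27, 28 and 21 counts of Tnfsf10 were obtained, and with A-485+IFNγ 104, 96 and 138. Tnfsf10 was 4.45-fold lower (log2 fold change -2.15, SE 0.35, adjusted p = 0.00307, edgeR). Cxcl5, a ligand of CXCR2, had a log2 fold change of -3.09 (95% interval -4.50 to -1.68) that did not pass the threshold (adjusted p = 0.0332, edgeR), and that of Cx3cl1 was -0.68 (95% interval -2.08 to 0.73).

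The immunity-related GTPases, which act on the vacuoles of intracellular pathogens, were the largest family among the lower genes. Of 11 tested, 7 were lower with A-241+IFNγ, and the median log2 fold change of the 11 was -2.09. DESeq2 called 9 of the 11 lower, a fit with 2 surrogate variables 11, and limma-voom 5, without Tgtp2 and Gm4951. With at least 10 counts in every library only 1 of them was tested, and it was called lower. All 11 were IFNγ-induced and had a negative fold change. Counts of Iigp1 were 212, 362 and 264 with A-241+IFNγ and 1620, 1246 and 1555 with A-485+IFNγ. Iigp1, the member with the highest counts, was 5.38-fold lower (log2 fold change -2.43, SE 0.26, adjusted p = 0.000138, edgeR). Igtp had 166, 188 and 176 counts with A-241+IFNγ and 667, 581 and 696 with A-485+IFNγ. Igtp was 3.67-fold lower (log2 fold change -1.88, SE 0.18, adjusted p = 5.34e-05, edgeR), and it shares exon bases with Irgm2. Gm12250 is annotated as a processed pseudogene. With A-241+IFNγ 3, 6 and 2 counts of Gm12250 were obtained, and with A-485+IFNγ 44, 56 and 57. The counts with A-241 were 6 at most, and Gm12250 was 14.1-fold lower (log2 fold change -3.82, SE 0.53, adjusted p = 0.00165, edgeR). Tgtp1 and Tgtp2 had nearly the same counts in every library. They are near-identical copies whose reads cannot be divided with certainty, and their log2 fold changes were -2.99 and -2.98. The predicted genes Gm4951 and Gm4841 lie beside Iigp1 on chromosome 18, and had log2 fold changes of -3.15 (SE 0.52) and -2.09 (SE 0.32). Of the members that did not pass the threshold, Irgm1 had a log2 fold change of -1.01 (95% interval -1.50 to -0.51) and Irgm2 one of -1.23 (95% interval -2.17 to -0.29).

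Among the 5 guanylate-binding proteins tested, a second family of GTPases that coat pathogen vacuoles, Gbp2 was lower with A-241+IFNγ and the median log2 fold change was -1.21. Counts of Gbp2 were 388, 500 and 428 with A-241+IFNγ and 987, 957 and 1076 with A-485+IFNγ. Gbp2 was 2.31-fold lower (log2 fold change -1.21, SE 0.19, adjusted p = 0.0025, edgeR). Gbp3 had a log2 fold change of -1.11 (95% interval -1.59 to -0.64, adjusted p = 0.0197, edgeR) and Gbp7 one of -0.94 (95% interval -1.44 to -0.44), and in all 5 the libraries of A-241+IFNγ were below those of A-485+IFNγ. Gbp4 and Gbp2b had at most 2 counts with A-241+IFNγ and at most 12 with A-485+IFNγ. The predicted gene Gm43302, on chromosome 5 from 105214907 to 105293695, was on none of the lists. Gm43302 had 8, 14 and 10 counts with A-241+IFNγ and 111, 95 and 101 with A-485+IFNγ. Gm43302 was 9.65-fold lower (log2 fold change -3.27, SE 0.45, adjusted p = 0.00114, edgeR).

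Antiviral genes had mostly negative fold changes of unequal size. Of 34 tested, 7 were lower with A-241+IFNγ, and the median log2 fold change was -0.40 over the list. The fold change was negative in 29 of the 34 and positive in 5. At an unadjusted p under 0.05 (edgeR) 14 were negative and 1 positive, and DESeq2 called 11 lower and limma-voom 8. Ifit3 belongs to a family that restricts foreign RNA. With A-241+IFNγ 21, 22 and 16 counts of Ifit3 were obtained, and with A-485+IFNγ 150, 175 and 224. Ifit3 was 9.31-fold lower (log2 fold change -3.22, SE 0.39, adjusted p = 0.000348, edgeR), and its near-identical neighbour Ifit3b, whose reads may be mixed with its own, was 4.56-fold lower. Counts of Rsad2 were 22, 29 and 40 with A-241+IFNγ and 166, 123 and 121 with A-485+IFNγ. Rsad2, which encodes viperin, was 4.5-fold lower (log2 fold change -2.17, SE 0.35, adjusted p = 0.00298, edgeR). Oasl2, a relative of the oligoadenylate synthetases, had a log2 fold change of -1.25 (SE 0.22, adjusted p = 0.00616, edgeR). The remaining 3 were genes of the Ifi200 cluster on chromosome 1, whose products bind DNA, namely Ifi203 (-1.61, SE 0.25), Ifi204 (-1.44, SE 0.20) and Mndal (-1.42, SE 0.20). Ifi203 and Mndal share exon bases. Between 173747293 and 174031810 of that chromosome 5 of 7 tested genes were lower, the other 2 of these being Ifi205 and Ifi211, named after their values were seen. Ifi211 had 218, 297 and 243 counts with A-241+IFNγ and 665, 611 and 723 with A-485+IFNγ. In Ifi211 this was a 2.66-fold difference (log2 fold change -1.41, SE 0.14, adjusted p = 4.31e-05, edgeR).

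Other IFNγ-induced antiviral genes did not pass the threshold, over a range of fold changes. Isg15, a ubiquitin-like modifier, had a log2 fold change of 0.19 (95% interval -0.60 to 0.98), Samhd1, which degrades nucleotides, one of -0.83 (95% interval -1.19 to -0.47, adjusted p = 0.0215, edgeR) and Ifit2 one of -1.45 (95% interval -2.03 to -0.88, adjusted p = 0.011, edgeR). Of genes outside the list, a few were named after their values were seen. These were Tlr3, a receptor for double-stranded RNA (-1.34, SE 0.20), Tmem173, which encodes STING and lost its call with any 1 of the 6 libraries left out (-1.10, SE 0.20), Tbkbp1, a partner of the kinase TBK1 (-1.68, SE 0.25), Slfn2 (-1.59, SE 0.19) and Apol6 (-2.93, SE 0.40), whose exons overlap those of Mb. Among 6 PARP and Dtx3l genes edgeR called 0, with 2 at an unadjusted p under 0.05 and 1 called lower by DESeq2, 1 by limma-voom and 3 with 2 surrogate variables. Their median log2 fold change was -0.51.

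Genes that transmit the IFNγ signal and those of antigen presentation were left at levels that did not pass the threshold. With A-241+IFNγ 1621, 2155 and 1772 counts of Irf1 were obtained, and with A-485+IFNγ 2477, 2890 and 2446. Irf1 had a log2 fold change of -0.51 (95% interval -1.07 to 0.04, adjusted p = 0.853, edgeR), and although its libraries did not overlap the fitted interval includes 0. Of the 7 interferon regulatory factors edgeR called 0, with 0 at an unadjusted p under 0.05, and of the 13 genes of the receptor, JAK and STAT list it called 0, with 1 at an unadjusted p under 0.05. The median log2 fold changes were -0.36 and 0.10. SOCS and other feedback genes had a median of -0.00, with 0 of 12 called and 2 at an unadjusted p under 0.05.

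The same held for antigen presentation. Tap1, a subunit of the peptide transporter, had a log2 fold change of -0.59 (95% interval -1.09 to -0.10, adjusted p = 0.58, edgeR) and the proteasome subunit Psmb9, which overlaps it, one of 0.23 (95% interval -0.42 to 0.88). H2-K1 and H2-D1, the class I heavy chains, had log2 fold changes of 0.11 (95% interval -0.61 to 0.84) and 0.22 (95% interval -0.60 to 1.04), and B2m one of -0.07 (95% interval -0.50 to 0.36). B2m and Psmb9 were named after their values were seen. Nlrc5, the class I transactivator, had a log2 fold change of -1.41 (95% interval -2.48 to -0.33) on at most 14 counts per library. Of 8 genes of peptide transport and loading, 5 of the immunoproteasome and 6 of MHC class I, edgeR called 0 in each list, with 1 in each at an unadjusted p under 0.05, and the medians were -0.00, -0.30 and 0.02. Counts of Cd274 were 10, 14 and 10 with A-241+IFNγ and 26, 22 and 18 with A-485+IFNγ. Cd274, which encodes the checkpoint ligand PD-L1, had a log2 fold change of -0.97 (95% interval -1.65 to -0.29, adjusted p = 0.331, edgeR), and 0 of 8 checkpoint ligands were called, with 1 at an unadjusted p under 0.05. DESeq2 and limma-voom called 0 genes in the 7 lists of this paragraph and the preceding one, while a fit with 2 surrogate variables called 3 lower, Irf1, Stat3 and Tap1. Some of these intervals reached from a clear decrease past 0, while those of Tap1, Nlrc5 and Cd274 lay below 0. The lack of calls therefore does not show that the inhibitors act alike on these genes.

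**Figure D2:**
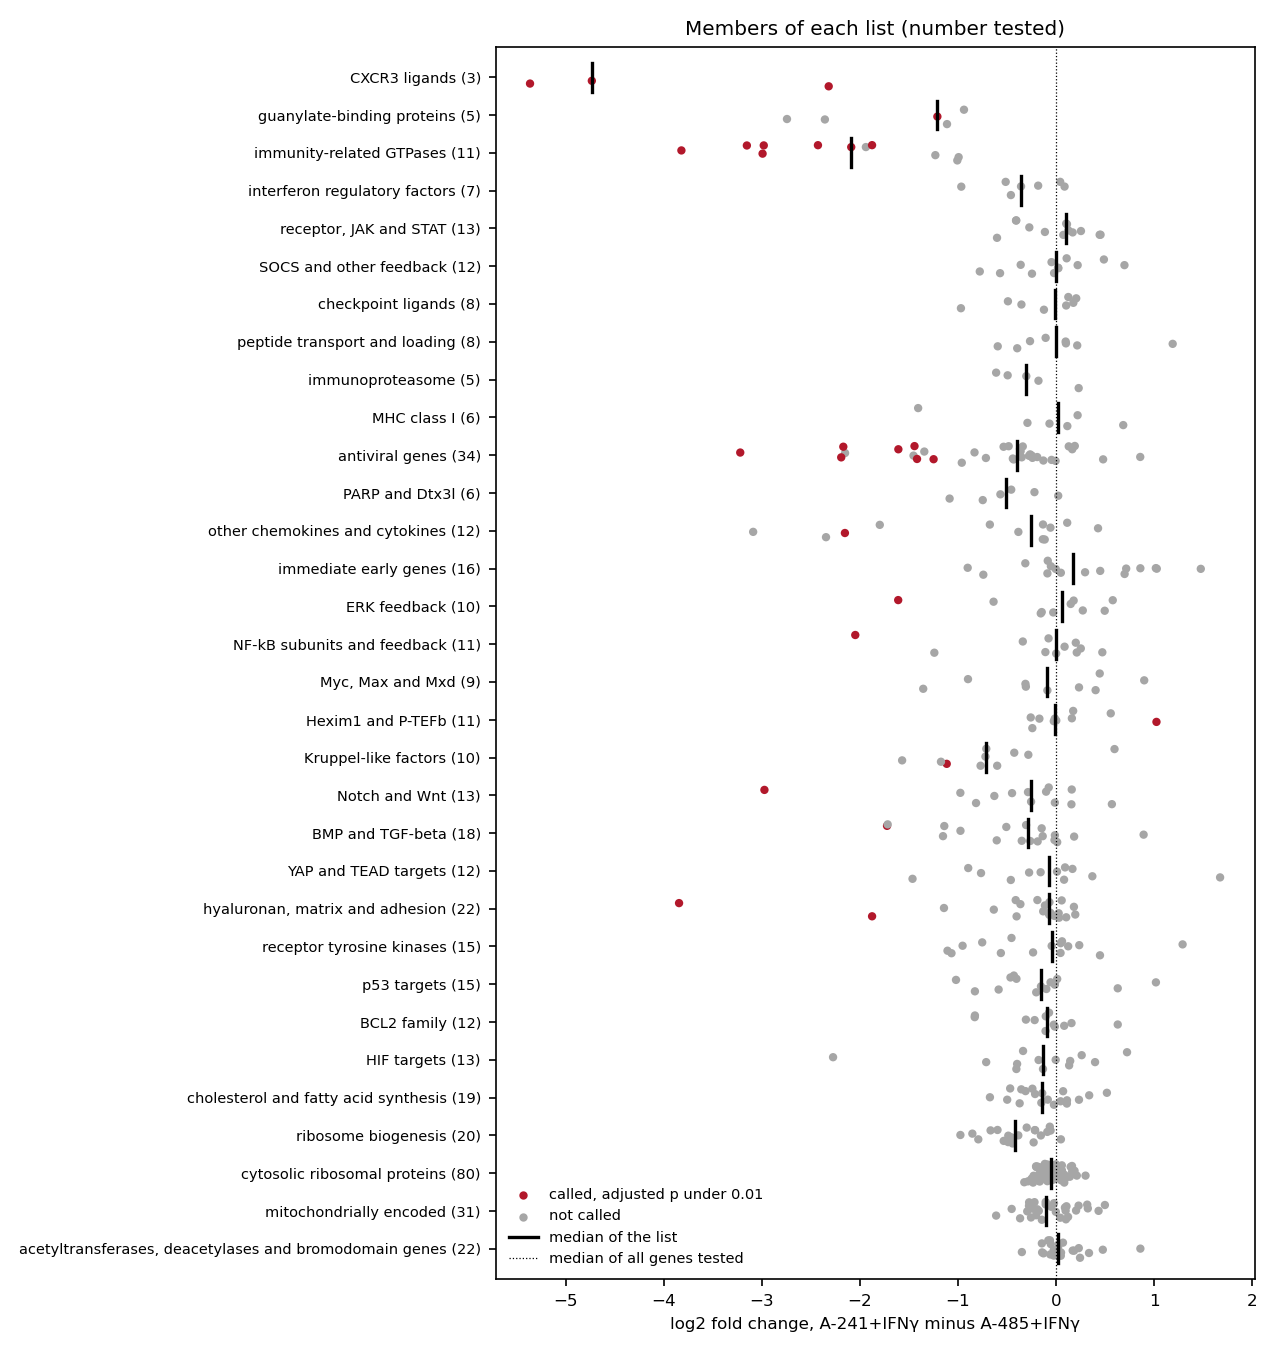
Log2 fold change of A-241+IFNγ minus A-485+IFNγ for the tested members of 32 lists, 1 line per list with the number tested, in red where called and in grey where not. Black bars are the medians of the lists, from -4.73 for CXCR3 ligands to 0.17 for immediate early genes, and the dotted line is the median of all genes tested.

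The promoters of the lower IFNγ-induced genes often held the ISRE core. In RefSeq promoters of GRCm38.p6 (250 bases before to 50 after the start), the letters GAAANNGAAA on either strand were found in 13 of 22 (59.1%) IFNγ-induced genes that were lower with A-241+IFNγ, in 29 of 84 (34.5%) IFNγ-induced genes that were not called, in 0 of 17 lower genes that were not IFNγ-induced and in 309 of 8283 (3.73%) of all genes tested. The letters TTCNNNGAA, a GAS, were found in 4 of 22 (18.2%), 18 of 84 (21.4%), 4 of 17 (23.5%) and 676 of 8283 (8.16%). Both motifs may overlap, and a match is a run of letters and not a bound site. Promoters of 3 strongly lower genes are shown, Ifit3 from chr19:34583279-34583578 on the plus strand, Tgtp1 from chr11:48992197-48992496 and Tgtp2 from chr11:49064163-49064462, both on the minus strand, with ISRE cores and GAS in capitals. The copies Tgtp1 and Tgtp2 have a GAS followed by an ISRE core at nearly the same distance from the start, while Ifit3 has a pair of ISRE cores. They are followed by that of Cxcl9 (chr5:92328030-92328329, minus strand), the gene of the largest fitted fold among those with at least 50 counts on average with A-485+IFNγ, in which neither run of letters was found.
Ifit3: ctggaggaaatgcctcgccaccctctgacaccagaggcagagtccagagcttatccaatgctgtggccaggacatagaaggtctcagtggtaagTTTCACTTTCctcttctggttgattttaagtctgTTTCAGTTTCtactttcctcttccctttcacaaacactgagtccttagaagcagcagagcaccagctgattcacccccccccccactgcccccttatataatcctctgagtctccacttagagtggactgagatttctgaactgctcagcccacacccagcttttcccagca
Tgtp1: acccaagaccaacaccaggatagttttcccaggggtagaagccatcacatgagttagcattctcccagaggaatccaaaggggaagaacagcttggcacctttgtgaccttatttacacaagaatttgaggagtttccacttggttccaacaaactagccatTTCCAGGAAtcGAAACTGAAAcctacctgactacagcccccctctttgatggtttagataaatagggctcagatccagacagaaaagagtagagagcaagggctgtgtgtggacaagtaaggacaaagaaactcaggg
Tgtp2: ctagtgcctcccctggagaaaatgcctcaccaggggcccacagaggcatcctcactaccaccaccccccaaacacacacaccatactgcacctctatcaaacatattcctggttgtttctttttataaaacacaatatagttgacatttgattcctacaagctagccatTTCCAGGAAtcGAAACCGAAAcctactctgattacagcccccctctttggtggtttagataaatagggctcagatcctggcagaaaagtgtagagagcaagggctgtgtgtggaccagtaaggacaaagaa
Cxcl9: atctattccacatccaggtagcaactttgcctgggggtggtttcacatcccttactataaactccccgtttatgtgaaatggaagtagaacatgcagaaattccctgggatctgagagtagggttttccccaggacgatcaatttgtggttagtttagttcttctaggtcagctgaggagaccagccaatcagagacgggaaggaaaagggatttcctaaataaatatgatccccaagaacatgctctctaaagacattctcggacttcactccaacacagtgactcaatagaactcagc

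Taken across genes, 137 genes (1.15%) were IFNγ-induced, meaning higher with IFNγ than with DMSO at an adjusted p under 0.01 (edgeR) and a log2 fold change over 1. None of the 6 libraries compared entered this choice, although the fit shares its spread. Of the 137, 31 (22.6%) were lower with A-241+IFNγ, against 0.254% of the 11827 other genes. A further 96 had a negative fold change and 10 a positive one, and the median log2 fold change was -0.96, with quartiles of -1.66 and -0.40. In 100 of the 137 the groups of libraries were apart with A-241 below, and in 2 with A-241 above. Medians were more negative where the response to IFNγ was stronger. When the 137 genes were ranked by their response and divided into 3 parts, the 46 genes with log2 responses from 1.01 to 1.96 had a median difference of -0.47 with 5 called, the 46 from 1.97 to 3.47 a median of -1.11 with 10 called, and the 45 from 3.48 to 11.1 a median of -2.15 with 16 called. The median counts with A-485+IFNγ were 142, 72.3 and 46 in these parts, so that the most strongly induced genes were measured on the fewest counts. Across the 137 genes Pearson's r between response and difference was -0.67 and Spearman's rho -0.56, a description over genes that share their libraries. The 10 positive genes included Tap2, with a log2 fold change of 1.19 (95% interval -0.43 to 2.80) that rested on 58 counts in A-241+IFNγ replicate 2 against 14 at most in the other libraries and became -0.51 without that library. They also included the transcription factors Crem and Csrnp1, named after their values were seen, at 0.62 (95% interval -0.07 to 1.32) and 0.63 (95% interval 0.05 to 1.21), and none of the 10 was called. When IFNγ replicate 2 and DMSO replicate 3, both rich in Gm42418, were left out, 172 genes were IFNγ-induced, 53 of them were lower and their median was -0.78.

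**Figure D3:**
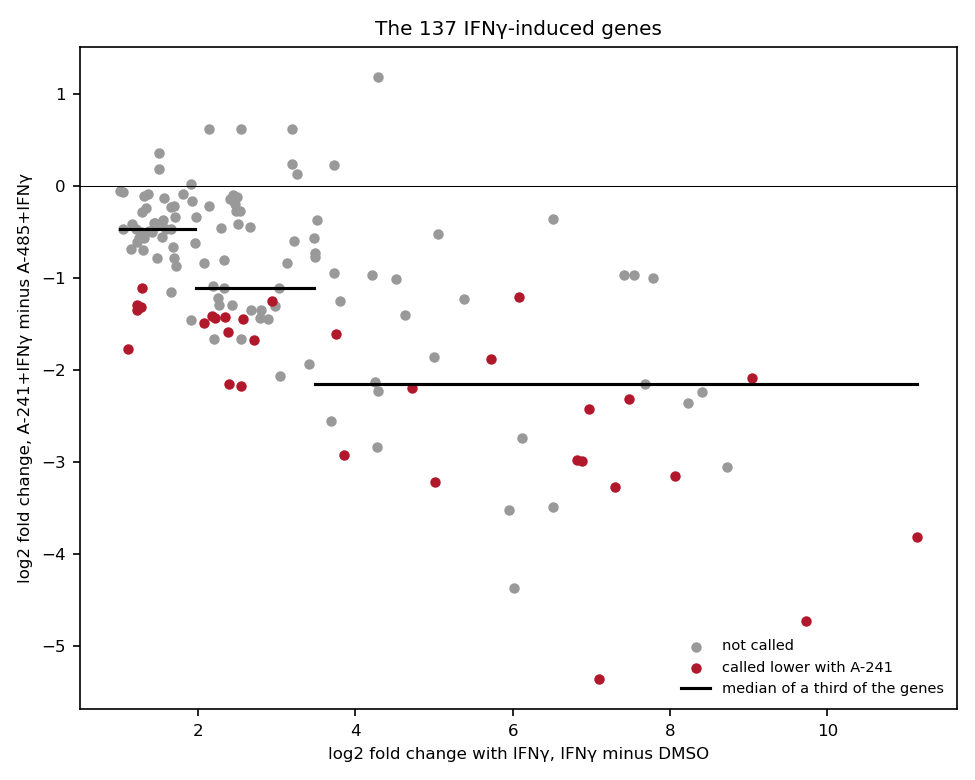
Log2 response to IFNγ (IFNγ minus DMSO, horizontal axis) against the log2 fold change of A-241+IFNγ minus A-485+IFNγ (vertical axis) for the 137 IFNγ-induced genes, in red where lower. Black lines are the medians of the 3 parts of the genes, -0.47, -1.11 and -2.15.

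Of the 61 lower genes 30 were not IFNγ-induced. The largest difference among those with at least 50 counts on average with A-485+IFNγ was in Has2, which synthesizes hyaluronan at the plasma membrane and overlaps the antisense gene Has2os. Has2 had 3, 6 and 3 counts with A-241+IFNγ and 54, 60 and 60 with A-485+IFNγ. Has2 was 14.3-fold lower (log2 fold change -3.84, SE 0.30, adjusted p = 7.65e-06, edgeR). Its CPM was 10.3, 10.3 and 12.1 with DMSO and 25.6, 20.6 and 22.2 with IFNγ alone. Has2 was thus higher in each IFNγ library, although it did not meet the definition of an IFNγ-induced gene. With A-241+IFNγ 49, 79 and 60 counts of Adamts1 were obtained, and with A-485+IFNγ 536, 416 and 424. Adamts1, a secreted protease of proteoglycans, was 7.43-fold lower (log2 fold change -2.89, SE 0.34, adjusted p = 0.000315, edgeR), as was its neighbour Adamts5 (-1.75, SE 0.28). Counts of Thbs1 were 21, 37 and 23 with A-241+IFNγ and 99, 90 and 103 with A-485+IFNγ. Thbs1, the matricellular protein thrombospondin 1, had a log2 fold change of -1.88 (SE 0.29, adjusted p = 0.0025, edgeR). Has2 and Thbs1 were the 2 lower genes among 22 of hyaluronan, matrix and adhesion, whose median was -0.07. Abundant matrix genes of this list did not pass the threshold, Fn1 with a log2 fold change of -0.41 (95% interval -0.71 to -0.11) and the integrin Itgb1 with one of -0.13 (95% interval -0.47 to 0.21).

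The lists of developmental and other signals held 1 lower gene each, of 10 to 18 tested, against 0.51% of all genes. Sostdc1 had 9, 13 and 8 counts with A-241+IFNγ and 80, 84 and 70 with A-485+IFNγ. Sostdc1, an antagonist of BMP and Wnt ligands, was 7.85-fold lower (log2 fold change -2.97, SE 0.27, adjusted p = 2.93e-05, edgeR). With A-241+IFNγ 21, 36 and 23 counts of Fst were obtained, and with A-485+IFNγ 85, 92 and 82. Fst, which encodes the activin-binding follistatin, had a log2 fold change of -1.72 (SE 0.25, adjusted p = 0.00136, edgeR). Each was the 1 gene called in its list, of 13 Notch and Wnt genes with a median of -0.26 and of 18 BMP and TGF-beta genes with a median of -0.28. Inhba, which encodes an activin subunit, had a log2 fold change of -1.72 (95% interval -2.44 to -0.99, adjusted p = 0.0183, edgeR), and the targets Id2 and Id3 had -0.51 (95% interval -0.92 to -0.10) and -0.19 (95% interval -1.92 to 1.54). Of the Kruppel-like factors 1 of 10 was lower, Klf6 (-1.11, SE 0.15, adjusted p = 0.00114, edgeR), while 9 of the 10 had a negative fold change and the median was -0.72. At an unadjusted p under 0.05 (edgeR) 5 of the 10 were negative and 0 positive, and DESeq2 called 3 lower and limma-voom 1. The most negative value was that of Klf3, -1.57 (95% interval -2.18 to -0.95, adjusted p = 0.0106, edgeR). The NF-kB cofactor Bcl3 (-2.05, SE 0.35) and the ERK-responsive Phlda1 (-1.61, SE 0.26) were each the 1 lower gene of their list, of 11 and 10, while Rela had a log2 fold change of -0.11 (95% interval -0.61 to 0.39) and Dusp6 one of 0.58 (95% interval -0.46 to 1.62).

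Further lower genes were outside every list and are named after their values were seen. They included the transcription factors Runx1 (-1.87, SE 0.22), Trps1 (-1.34, SE 0.13), Tfap4 (-1.95, SE 0.27), Arid5b (-2.24, SE 0.33) and Sox4 (-1.19, SE 0.21). Counts of Runx1 were 26, 25 and 25 with A-241+IFNγ and 107, 71 and 101 with A-485+IFNγ. The Runx1 libraries of A-241+IFNγ lay close together and all below those of A-485+IFNγ. The pseudokinases Trib2 (-1.42, SE 0.22) and Trib3 (-1.77, SE 0.21) were lower, as were Pik3r1, the regulatory subunit of PI3 kinase (-1.57, SE 0.21), and Deptor, an inhibitor of mTOR (-1.20, SE 0.20). Fabp5, a fatty acid binding protein, had the highest counts of the 61. Fabp5 had 2020, 2226 and 1940 counts with A-241+IFNγ and 4499, 4136 and 4681 with A-485+IFNγ. Fabp5 was 2.16-fold lower (log2 fold change -1.11, SE 0.16, adjusted p = 0.00133, edgeR). The lincRNA Gm38335, which lies next to it, had 0, 1 and 0 counts with A-241 against 16, 10 and 13 with A-485, a ratio of 38.3 with a 95% counting interval of 6.48 to 1551. Tsr1, a factor of small ribosomal subunit maturation that overlaps Srr, had a log2 fold change of -0.99 (SE 0.16) and the initiation factor Eif1a one of -0.82 (SE 0.15), the smallest decrease called.

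Ribosome biogenesis genes had mostly negative fold changes, none of which passed the threshold. Of 20 tested, 19 had a negative fold change, the median was -0.41, and in 15 every A-241+IFNγ library was below every A-485+IFNγ library. edgeR called 0 of the 20, with 8 at an unadjusted p under 0.05, 1 called lower by DESeq2, 0 by limma-voom, 3 in a fit of only the groups compared and 8 with 2 surrogate variables. Gnl3 had a log2 fold change of -0.85 (95% interval -1.27 to -0.44) and Ppan one of -0.98 (95% interval -1.64 to -0.31), and the abundant Npm1 and Ncl had -0.22 (95% interval -0.52 to 0.09) and -0.09 (95% interval -0.63 to 0.45). Cytosolic ribosomal protein genes, by contrast with a median of -0.06 over 80 genes, lay between -0.32 and 0.30, and 31 mitochondrially encoded genes had a median of -0.11. In both lists edgeR called 0, with 1 at an unadjusted p under 0.05.

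Hexim1 forms a complex with 7SK RNA that holds P-TEFb inactive. With A-241+IFNγ 257, 428 and 303 counts of Hexim1 were obtained, and with A-485+IFNγ 159, 159 and 157. Hexim1 had a log2 fold change of 1.02 (SE 0.14, adjusted p = 0.00101, edgeR), with the A-485 libraries close together and all below the A-241 libraries. Of the 10 other P-TEFb genes tested, 0 were called by edgeR, DESeq2 or limma-voom, with 0 at an unadjusted p under 0.05, and Cdk9 and Larp7 had log2 fold changes of 0.00 (95% interval -0.93 to 0.93) and -0.01 (95% interval -0.27 to 0.25). The next positive genes were below the threshold. Counts of Egr1 were 939, 1692 and 1001 with A-241+IFNγ and 552, 639 and 534 with A-485+IFNγ. Egr1, an immediate early transcription factor, had a log2 fold change of 1.03 (95% interval 0.62 to 1.43, adjusted p = 0.0106, edgeR). Cpeb4, a regulator of poly(A) tails, had 0.77 (95% interval 0.37 to 1.17), Gspt2, a translation release factor, 0.74 (95% interval 0.38 to 1.10) and Cdc6, a replication licensing factor, 0.59 (95% interval 0.27 to 0.91). The immediate early genes had a median of 0.17, the only list median besides that of receptor, JAK and STAT genes above 0.1, with 4 of 16 positive and 2 negative at an unadjusted p under 0.05 (edgeR) and 1 called higher by both DESeq2 and limma-voom. The genes of the targets themselves did not pass the threshold, with Ep300 at 0.07 (95% interval -0.25 to 0.39) and Crebbp at -0.02 (95% interval -0.33 to 0.28). Brd2, which encodes a BET protein, had a log2 fold change of 0.86 (95% interval 0.28 to 1.44).

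**Figure D4:**
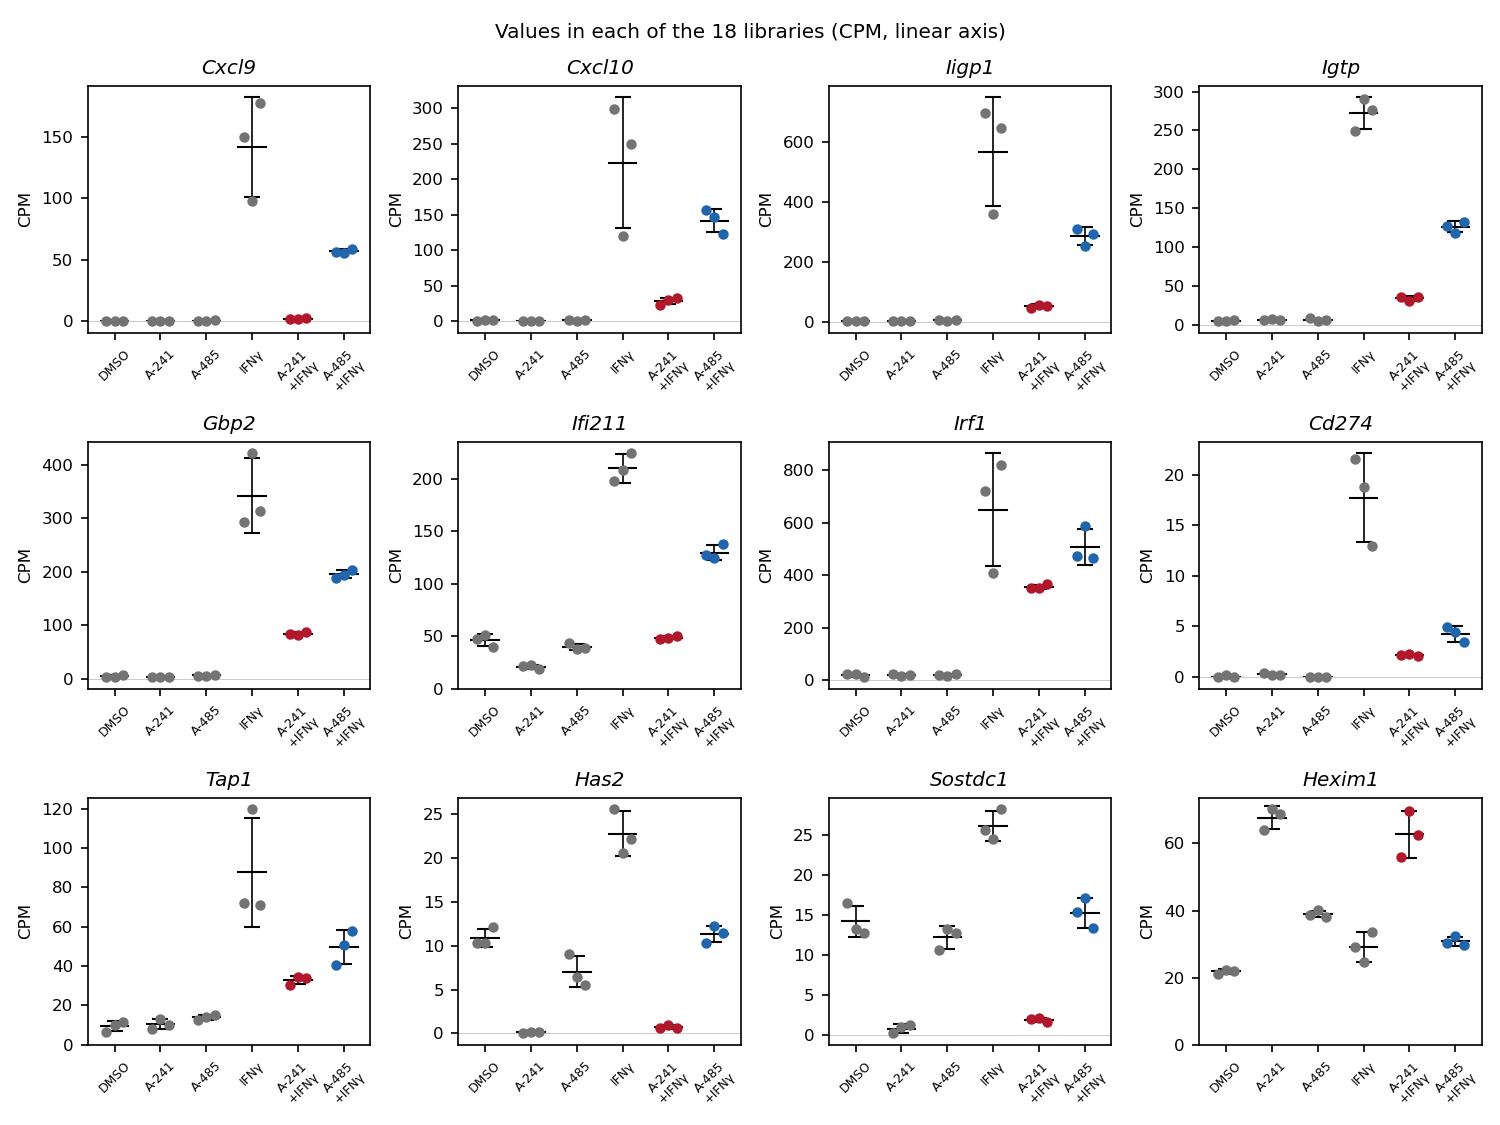
CPM of 12 genes in each of the 18 libraries, with 3 points per condition, the mean as a horizontal bar and the SD as a whisker, and with A-241+IFNγ in red and A-485+IFNγ in blue. In Cxcl9 the A-241+IFNγ libraries have a mean of 2.13 CPM against 57.0 with A-485+IFNγ, in Has2 0.750 against 11.3 and in Hexim1 62.7 against 30.9.

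In the remaining 8 lists edgeR called 0 genes, with medians between -0.15 and 0.02 and few members at an unadjusted p under 0.05. Among 15 p53 targets 1 was negative and 1 positive at that level, and Mdm2 had a log2 fold change of -0.06 (95% interval -0.76 to 0.65). Among 9 Myc, Max and Mxd genes 1 was negative and 1 positive at it, and Myc had 6, 7 and 6 counts with A-241+IFNγ and 19, 8 and 22 with A-485+IFNγ (log2 fold change -1.35, 95% interval -2.60 to -0.11). For 12 YAP and TEAD targets, 15 receptor tyrosine kinases and 13 HIF targets 2 each were negative at it, for 19 genes of cholesterol and fatty acid synthesis 3 were and for 12 BCL2 family genes 0 were. Ankrd1, a YAP target, had a log2 fold change of 0.08 (95% interval -0.41 to 0.57). Of 22 acetyltransferases, deacetylases and bromodomain genes 1 was positive at it. DESeq2 and limma-voom also called 0 genes in these 8 lists. With 2 surrogate variables calls were made in 5 of them, 2 lower among p53 targets, 2 among receptor tyrosine kinases, 1 among YAP and TEAD targets, 1 among cholesterol and fatty acid genes, and Brd2 higher. Altogether 20 of the 32 lists held no gene called by edgeR.

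The same inhibitors were compared in the 6 libraries without IFNγ, whose values do not enter the fold changes under IFNγ, although they enter the spread behind its p values. There A-241 left 42 genes (0.351%) lower than A-485 did, and 2 genes (0.0167%) higher. Of these 42, 19 (45.2%) were among the 61 genes lower under IFNγ, which is 31.1% of the 61. Only 4 of the 42 were IFNγ-induced, and 3 of these 4 were in the overlap, namely Slfn2, Ifi211 and the Ras-binding Rin2. The other 16 genes of the overlap were not IFNγ-induced. All 30 lower genes that were not IFNγ-induced had a negative fold change without IFNγ, with a median of -1.52 against -1.45 with IFNγ. Of the 31 that were IFNγ-induced 28 had a negative fold change without IFNγ, with a median of -0.92 against -1.88 with it. For 10 of these 31 the mean with A-485 alone was below 10 counts, and 3 had at most 3 counts in each of these libraries, so that a difference was not detectable at this depth. Over all 137 IFNγ-induced genes the median without IFNγ was -0.21. The 30 and the 31 genes were chosen for their difference with IFNγ. That choice can make their medians with IFNγ more negative but not those without it, so the 2 medians are not like measures.

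In the libraries without IFNγ Has2 was at 0, 1 and 1 counts under A-241, against 51, 34 and 24 under A-485. Its log2 fold change without IFNγ was -5.45 (adjusted p = 5.64e-06, edgeR), and those of Sostdc1, Fst and Adamts1 were -3.84, -3.18 and -3.00. Hexim1 had a log2 fold change of 0.80 without IFNγ (adjusted p = 0.00713, edgeR), and was thus higher with A-241 in both settings. Igtp was at 0.12 (95% interval -0.33 to 0.57) without IFNγ against -1.88 with it. The difference of the differences was tested as an interaction. edgeR called 0 genes at an adjusted p under 0.01, with 179 negative and 99 positive at an unadjusted p under 0.05, while DESeq2 called 1 negative and 1 positive and limma-voom 0. At an adjusted p under 0.05 edgeR called 1 gene (0.00836%), Igtp. Whether other genes differed between the inhibitors by more with IFNγ than without is therefore not shown.

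**Figure D5:**
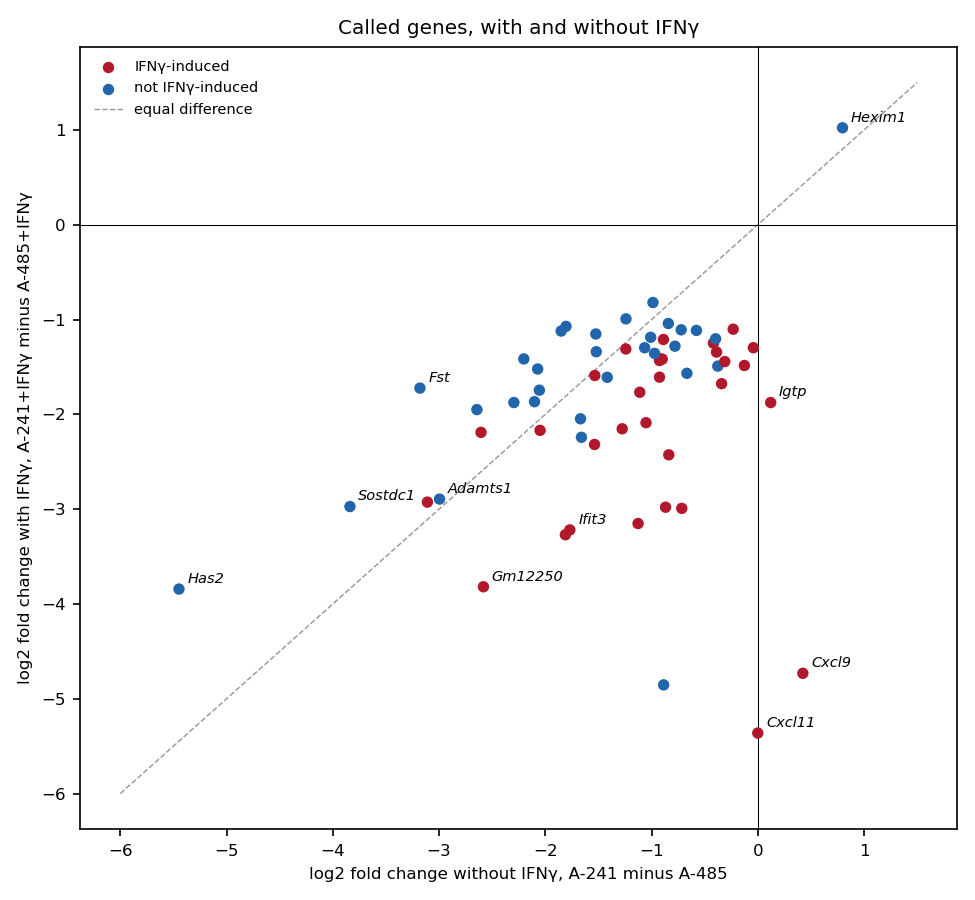
Log2 fold change of A-241 minus A-485 without IFNγ (horizontal axis) against that with IFNγ (vertical axis) for the 62 genes called, in red for IFNγ-induced genes and in blue for the others, with a dashed line where both are equal. Has2 lies at -5.45 and -3.84, Igtp at 0.12 and -1.88 and Hexim1 at 0.80 and 1.02.

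Set against IFNγ alone, which both comparisons share as control, all 61 genes were lower with A-241+IFNγ (as were 3.54% of all genes) and 15 of 61 with A-485+IFNγ (0.535% of all genes). The 61 were chosen on the A-241+IFNγ and A-485+IFNγ libraries, so these counts describe them. Medians were -2.43 with A-241 and -0.77 with A-485. Among the 137 IFNγ-induced genes, which were chosen on the IFNγ libraries, A-241+IFNγ left 87 below their level in IFNγ alone and A-485+IFNγ left 14 below it, with medians of -1.74 and -0.78. In Cxcl9 the log2 fold change against IFNγ alone was -6.05 with A-241+IFNγ and -1.31 with A-485+IFNγ, and in Iigp1 it was -3.41 and -0.99. Of the 61, 55 had a negative fold change with A-485+IFNγ against IFNγ alone. Some were above IFNγ alone in every library of A-485+IFNγ. Cxcl11 had 5.74, 6.11 and 7.03 CPM with A-485+IFNγ against 3.44, 3.57 and 2.97 with IFNγ alone. Fabp5 had 861, 842 and 889 CPM against 695, 697 and 793. A few genes were near the level of IFNγ alone with A-485+IFNγ. Slfn2 was at -1.50 with A-241 and 0.10 with A-485, Tlr3 at -1.39 and -0.04, and Hexim1 at 1.10 and 0.08.

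Several lower genes were neighbours. Of the 61, 21 lay within 1 Mb of another lower gene, in 8 groups that include the chemokines, the Ifi200 cluster, Gm4951 with Gm4841 and Iigp1 (3 of 4 tested genes of their interval), Gm12250 with Igtp, Tgtp1 with Tgtp2, Ifit3 with Ifit3b and Adamts1 with Adamts5. Of the 61, 14 share exon bases with another gene, so that a read can have been counted for both. The matching shares over all genes tested were not computed, so both numbers only describe the 61.

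The number of calls rested on all 6 libraries. Without A-241+IFNγ replicate 1, 2 or 3, 31, 17 and 21 genes were lower, and without A-485+IFNγ replicate 1, 2 or 3, 33, 41 and 36. Of the 62 genes called, 14 stayed called with each of the 6 libraries left out in turn, namely Cxcl9, Ifit3, Iigp1, Igtp, Ifi205, Ifi211, Slfn2, Trib3, Has2, Sostdc1, Adamts1, Runx1, Trps1 and Hexim1. Another 14 lost their call whichever library was left out, namely Gbp2, Gm4841, Rsad2, Oasl2, Tnfsf10, Tmem173, Bcl3, Phlda1, Thbs1, Adamts5, Sox4, Tgm2, Pdzrn3 and Eif1a. A fit of only the 6 libraries called 138 genes lower, and one without IFNγ replicate 2 and DMSO replicate 3 called 150.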

How the data were processed

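Libraries of 3′ mRNA from AT3 cells in 6 conditions of 3 libraries each were sequenced by the study. Per the labels and methods, the authors trimmed reads with cutadapt 1.7, aligned them with HISAT2 2.1.0 and deposited raw counts of reads per gene from featureCounts, which was run without strand and let 1 read count for every gene it overlapped. The annotation release is not given in the sources used here. Identifiers were joined to GENCODE vM21 (GRCm38), which held 97.5% of them, and the rest took 0.403% of the counts. Promoter sequences were taken from RefSeq (GRCm38.p6).

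Counts were fitted with edgeR 4.0.16 in R 4.3.3 (filterByExpr, TMM factors, quasi-likelihood F-test, 1 mean per condition over 18 libraries), and p values were adjusted by Benjamini-Hochberg over the 11964 genes kept, with calls at an adjusted p under 0.01. Standard errors were derived from the F statistic, and 95% intervals from the moderated degrees of freedom. The study used limma on such counts, so limma-voom (limma 3.58.1), DESeq2 1.42.0 and sva 3.50.0 with 2 surrogate variables served as alternatives, beside other scalings, filters and left-out libraries. The fit was tested on simulated counts. CPM values of single genes were scaled by the TMM factors, while the marker sums and the CPM of 3 counts were scaled by total counts. Intervals on counts cover counting error only, since reads carry no molecular identifiers in the counts used.

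The members, gene lists and tests were chosen with earlier results of these data known. Genes were named where they were among the 15 largest decreases or 10 largest increases called, where the higher group averaged 50 counts or more and the groups did not overlap. Also named were called members of a list, up to 4 uncalled members per list with the highest counts or largest fold change, the 5 positive genes of smallest p, the called genes of the interaction, and the study's targets. Others are said to be named after their values were seen. Gbp5, Gbp6 and Gbp10 were not analysed here, and some results that the naming rule would include are not reported here.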

Additional observations from a re-analysis of the deposited data

Results flagged for a closer look

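The difference between A-241 and A-485 depended on the presence of IFNγ in Igtp, an immunity-related GTPase. The interaction was -1.997 on the log2 scale (95% interval -2.59 to -1.40, adjusted p = 0.0281, edgeR), which passed an adjusted p of 0.05 and not the 0.01 used for calls. Igtp shares exon bases with Irgm2, and reads on those bases can have been counted for both genes.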

How the results depend on the processing

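All 61 lower genes remained called with DESeq2, with 2 surrogate variables and without IFNγ replicate 2 and DMSO replicate 3, 58 of them with limma-voom, 60 in a fit of only the groups compared, 55 without a filter on low counts, 45 with total counts and 35 with at least 10 counts in every library, a filter that left 24 untested. None of the 62 called genes changed sign under any alternative, while 25 of the 196 genes followed did, all of them uncalled, among them Tap2, Id3, Isg15, Cdk9 and Rela. The called genes were chosen for their difference in these same libraries, so their constant sign follows largely from that choice. With 2 surrogate variables 293 genes were lower and 26 higher under IFNγ, 409 and 147 without IFNγ, and 1 negative and 2 positive in the interaction. With DESeq2 these were 108 and 3, 109 and 16, and 1 and 1. In a fit of only the groups compared they were 138 and 4, 111 and 10, with 1 negative in the interaction. Without IFNγ replicate 2 and DMSO replicate 3 they were 150 and 7, 180 and 30, with 1 negative. At an adjusted p under 0.05 they were 102 and 3, 100 and 13, with 1 negative. At least 10 counts in every library gave 40 lower and 2 higher under IFNγ, limma-voom 2 higher under IFNγ and 26 lower without it, and total counts 2 higher and 26 lower. Without a filter on low counts, or with an absolute log2 fold change over 1, 1 gene was higher without IFNγ. With 1 library left out in turn, 17 to 41 genes were lower under IFNγ, 18 to 26 without IFNγ, 0 to 1 were higher without IFNγ and 0 to 1 were negative in the interaction.

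Of the IFNγ-induced genes, 75 were lower with 2 surrogate variables, 14 with at least 10 counts in every library, 15 in a fit of only the groups compared (of 19 induced), 53 without IFNγ replicate 2 and DMSO replicate 3, and 9 to 39 with 1 library left out. The median of -0.96 was -0.64 with 2 surrogate variables, -0.78 with DESeq2, -0.54 with at least 10 counts in every library, -1.05 with limma-voom, -1.59 in a fit of only the groups compared, -0.78 without IFNγ replicate 2 and DMSO replicate 3, -0.78 with genes induced at an adjusted p under 0.05, and between -1.23 and -0.77 with 1 library left out. Each of these alternatives also changes which genes count as IFNγ-induced, and the cause of the shifts was not tested.

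Same-numbered libraries of the 2 groups compared had deviations that correlated at -0.12, 0.14 and 0.05, and were not treated as paired. Same-numbered libraries of DMSO correlated with those of A-241+IFNγ at 0.20, 0.48 and 0.19 and of A-485+IFNγ at 0.12, 0.21 and 0.31, but with those of IFNγ at 0.37, -0.80 and -0.70. With the number as a replicate block 50 genes were lower, all of them among the 61, and 2 were higher under IFNγ, and 28 were lower and 1 higher without IFNγ. At this depth genes with few counts, among them many of the most strongly induced, have wide intervals.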
